A study of Saccharomyces cerevisiae with 16 samples.

Results

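Protein mannosyltransferases and the oligosaccharyltransferase (OST) attach sugars to proteins as these enter the endoplasmic reticulum (ER) of budding yeast, *Saccharomyces cerevisiae*. The 10 genes considered were the mannosyltransferases *PMT1* to *PMT6* and the OST subunits *STT3*, *OST1*, *OST2* and *WBP1*. These genes were chosen by name, with earlier results of these data known. Rows were found for 7 of them in both tables (*PMT1*, *PMT3*, *PMT4*, *PMT6*, *OST1*, *OST2* and *WBP1*), of 5330 genes listed at 37 °C and 5190 at 15 °C. *PMT2*, *PMT5* and *STT3* were not analysed here. The study compared *tif3*Δ cells (strain FJZ52), which lack the initiation factor eIF4B, with cells carrying wild-type *TIF3* (strain FJZ46), each after a shift to 37 °C (experiment 1) or to 15 °C (experiment 2). The labels give 1 strain name per genotype, the same at both temperatures. All cultures grew in synthetic complete medium to an optical density of about 0.7 and received cycloheximide, which arrests elongating ribosomes, at 100 µg/ml for 2 min before harvest. Ribosome-protected fragments (footprints) and mRNA were sequenced from each culture type, giving 16 libraries in 8 groups of 2.

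O-mannosylation begins in the ER, where a Pmt protein moves mannose from dolichol phosphate mannose to serine or threonine. Pmt proteins cross the ER membrane many times and work as pairs: Pmt1 joins Pmt2, Pmt4 pairs with itself, and the less abundant family members add to these main complexes. N-glycosylation is carried out by OST, which transfers a preassembled oligosaccharide from dolichol to asparagine. Stt3 is the catalytic subunit of OST, and Ost1, Ost2, Wbp1 and Swp1 are further essential subunits. Ost2 is a small protein, whereas Ost1 and Wbp1 have large lumenal parts and a lone membrane anchor, so the description of all members as multi-pass enzymes did not hold for these 2 subunits. Heavily O-mannosylated and N-glycosylated proteins make up much of the yeast cell wall.

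Each deposited table gave 1 log2 normalised value per gene for each of its 4 groups, so no difference could be tested, none has a spread between replicates, and "higher" and "lower" describe these group values alone. In bulk cultures fewer cells with an mRNA and less of it per cell cannot be told apart. The lowest footprint values fell on regular steps, taken as the value of 1 footprint. By these steps, the footprints on listed genes came to about 11900000 in *tif3*Δ and 17500000 in wild type at 37 °C, and to about 1800000 in *tif3*Δ and 5500000 in wild type at 15 °C. Approximate footprint numbers and 95% intervals of footprint differences below come from these steps and cover counting error only. How deeply mRNA was sequenced cannot be read from the rounded values. Footprints divided by mRNA give the translational efficiency (TE), and since values were normalised, TE differences are relative to the other genes. *TIF3* was lower in *tif3*Δ in the authors' deposited table, by 157.0-fold in footprints at 37 °C (about 34 in *tif3*Δ and 7836 in wild type) and by 43.8-fold at 15 °C (about 23 in *tif3*Δ and 3093 in wild type). Markers of mating type set the experiments apart. The 4 α-specific genes had a summed mRNA of 43963 normalised units in *tif3*Δ and 7320 in wild type at 37 °C, whereas the 2 of them listed at 15 °C summed to 69 in *tif3*Δ and 85 in wild type. The 6 a-specific genes summed to 3895 in *tif3*Δ and 578 in wild type at 37 °C and to 4677 in *tif3*Δ and 4121 in wild type at 15 °C. The tables were normalised separately, but *STE3*, the a-factor receptor gene of α cells, had log2 mRNA of 12.2 in *tif3*Δ and 10.1 in wild type at 37 °C and of 3.2 in *tif3*Δ and 4.4 in wild type at 15 °C. The markers thus go against the same cells in both experiments, whatever the strain names, and this difference and temperature cannot be told apart where the experiments are set side by side. At 37 °C both marker sums were also higher in *tif3*Δ than in wild type, and their part in the genotype differences there was not tested. All 7 members had a mean normalised value of at least 10 in both library types at both temperatures, the limit for comparison, which 5197 genes met at 37 °C and 5012 at 15 °C. No member overlaps another annotated gene in the R64 reference, and each has an uninterrupted coding sequence there.

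In footprint levels the members fell into a higher and a lower set, the lower being *PMT3* and *PMT6*. Levels were compared between genes per kilobase of coding sequence, in log2 units relative to the median gene of the same group. In footprints at 37 °C, *PMT1*, the highest of the 4 mannosyltransferase genes, stood at 2.59 in *tif3*Δ and 3.25 in wild type, and *PMT4* at 2.01 in *tif3*Δ and 2.60 in wild type. *PMT6* stood at 0.88 in *tif3*Δ and 0.67 in wild type. *PMT3* was lowest, at -0.76 in *tif3*Δ and 0.44 in wild type, so it lay under the median gene in *tif3*Δ only. The OST members lay close together, with *OST1* at 2.10 in *tif3*Δ and 2.70 in wild type, *WBP1* at 2.70 in *tif3*Δ and 2.79 in wild type, and *OST2* at 2.17 in *tif3*Δ and 2.13 in wild type. After the shift to 15 °C, *PMT1* stood at 1.24 in *tif3*Δ and 2.40 in wild type, and *PMT4* at 1.04 in *tif3*Δ and 1.93 in wild type. *PMT6* (-0.56 in *tif3*Δ and -0.30 in wild type) and *PMT3* (-1.34 in *tif3*Δ and -0.49 in wild type) were then both under the median gene in both genotypes. *OST1* dropped out of the OST cluster in *tif3*Δ at 15 °C, at 0.42 in *tif3*Δ and 2.11 in wild type, beside *WBP1* at 1.56 in *tif3*Δ and 2.65 in wild type and *OST2* at 1.88 in *tif3*Δ and 1.68 in wild type.

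**Figure D1:**
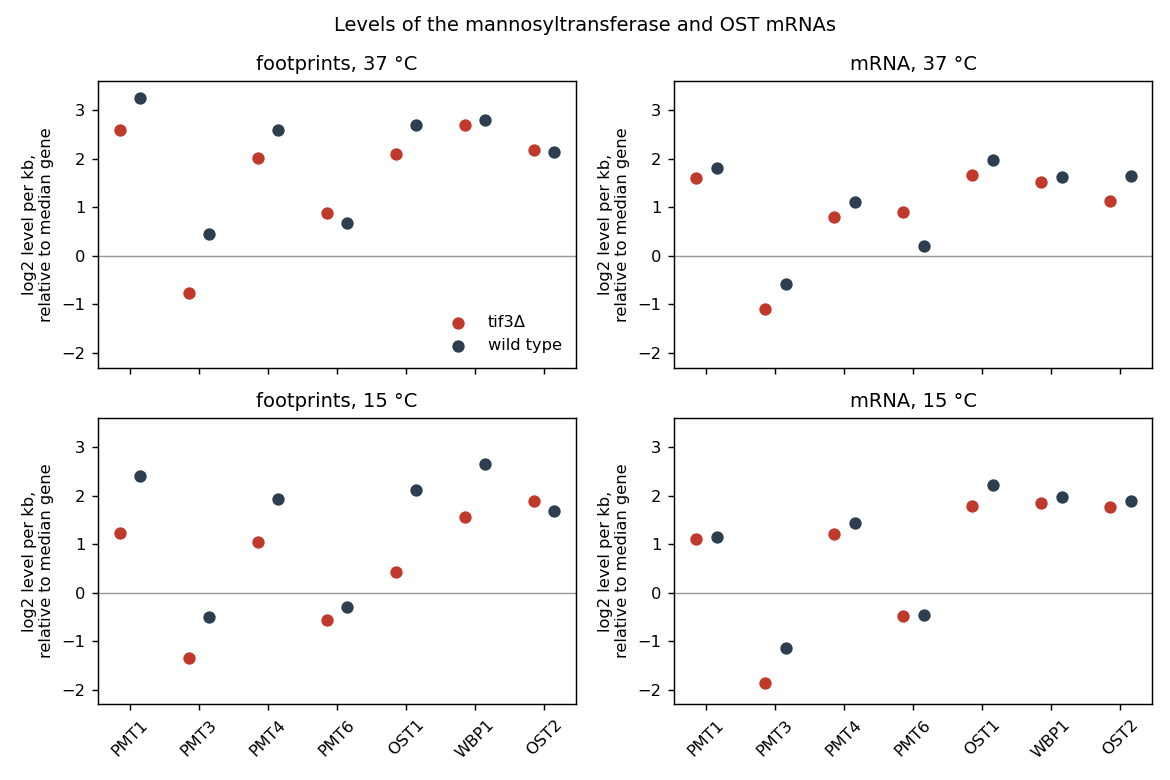
Footprint (left) and mRNA (right) levels of the 7 members at 37 °C (top) and 15 °C (bottom), per kilobase of coding sequence in log2 units relative to the median gene of the group. Each point is 1 group value, *tif3*Δ in red and wild type in dark blue; the *OST1* footprint points at 15 °C lie farthest apart, at 0.42 in *tif3*Δ and 2.11 in wild type.

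*PMT3* was also the lowest member in mRNA per kilobase, in both genotypes and at both temperatures. At 37 °C *PMT3* mRNA stood at -1.09 in *tif3*Δ and -0.58 in wild type, while *OST1* mRNA stood at 1.67 in *tif3*Δ and 1.98 in wild type and *PMT1* mRNA at 1.6 in *tif3*Δ and 1.8 in wild type. *PMT4* mRNA was at 0.80 in *tif3*Δ and 1.10 in wild type. The mRNA of *PMT6* was the exception in direction at 37 °C, at 0.90 in *tif3*Δ and 0.21 in wild type, so in *tif3*Δ its level was like that of *PMT4*. The mRNA levels of 6 members differed between genotypes by less than 1.5-fold at 15 °C, and *PMT3* stood at -1.87 in *tif3*Δ and -1.14 in wild type.

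TE levels need no length and were taken as log2 units relative to the median gene. In wild type at 37 °C all 7 members lay above the median gene, in the order *PMT4* (1.4), *PMT1* (1.35), *WBP1* (1.07), *PMT3* (0.93), *OST1* (0.63), *OST2* (0.39) and *PMT6* (0.37). The mRNA values are rounded to 0.1, so *PMT4* and *PMT1*, and *OST2* and *PMT6*, cannot be ranked against each other. In *tif3*Δ at 37 °C the order was *PMT4* (1.10), *WBP1* (1.07), *OST2* (0.92), *PMT1* (0.88), *OST1* (0.31), *PMT3* (0.21) and *PMT6* (-0.14), where the rounding leaves *PMT4* and *WBP1*, *OST2* and *PMT1*, and *OST1* and *PMT3* unranked. After the shift to 15 °C the TE of *PMT1* was at 0.00 in *tif3*Δ and 1.17 in wild type, that of *WBP1* at -0.40 in *tif3*Δ and 0.60 in wild type, and that of *OST1* at -1.5 in *tif3*Δ and -0.20 in wild type. This placed *OST1* at the 9.23 percentile of all genes in *tif3*Δ and the 38.2 percentile in wild type.

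The comparison at 37 °C asked which mRNAs are translated less without eIF4B after a shift to high temperature. *PMT1*, *PMT3*, *PMT4* and *OST1* had fewer footprints in *tif3*Δ, and the group values of both TE and mRNA were lower for each of them. Footprints were at least 1.5-fold lower in *tif3*Δ for 4 of 7 members (*PMT1*, *PMT3*, *PMT4* and *OST1*), against 13.2% of all genes, and at least 1.5-fold higher for 0 of 7, against 12.1%. TE was at least 1.5-fold lower for 1 of 7, *PMT3*, against 11.1% of all genes, and at least 1.5-fold higher for 0 of 7, against 10.3%. The mRNA was at least 1.5-fold lower for 0 of 7, against 8.87% of all genes, and higher for 1 of 7, *PMT6*, against 8.77%. The members' median TE difference was -0.34 on the log2 scale, beside 0.04 for all genes, and their median footprint difference was -0.60, beside 0.02. The footprint intervals of *PMT4* (-0.66 to -0.54 log2 units) and *OST1* (-0.69 to -0.54) reach to both sides of the 1.5-fold line at 37 °C.

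*PMT1* (YDL095W), the partner of Pmt2 in the main O-mannosylation complex, had log2 normalised footprints of 12.37 in *tif3*Δ and 13.04 in wild type at 37 °C, with mRNA at 11.5 in *tif3*Δ and 11.7 in wild type. Its footprints were 1.59-fold lower and its TE 1.38-fold lower in the authors' deposited table, on about 4907 footprints in *tif3*Δ and 11472 in wild type (log2 footprint difference -0.67, interval -0.71 to -0.62). *PMT4* (YJR143C), which pairs with itself and modifies membrane-attached proteins, had footprints of 11.69 in *tif3*Δ and 12.29 in wild type and mRNA of 10.6 in *tif3*Δ and 10.9 in wild type. The authors' deposited table put its footprints 1.52-fold and its TE 1.23-fold lower. *PMT1* and *PMT4* thus had footprint differences of similar size, at -0.67 and -0.60 in the authors' deposited table.

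*PMT3* (YOR321W), a close relative of *PMT2*, had the largest footprint and TE differences of the 7 members at 37 °C. Footprints were 8.90 in *tif3*Δ and 10.12 in wild type, about 441 footprints in *tif3*Δ and 1516 in wild type, and mRNA was 8.7 in *tif3*Δ and 9.2 in wild type. The authors' deposited table gave 2.33-fold lower footprints (log2 interval -1.38 to -1.07), 1.66-fold lower TE and 1.4-fold lower mRNA. *PMT6* (YGR199W), another member of the family, went the other way in mRNA, at 10.7 in *tif3*Δ and 10 in wild type, with footprints of 10.55 in *tif3*Δ and 10.36 in wild type. In the authors' deposited table its mRNA was 1.58-fold higher, its footprints were 1.14-fold higher and its TE was 1.38-fold lower. All 4 mannosyltransferase genes therefore had TE differences below 0 at 37 °C in the authors' deposited table, from -0.73 for *PMT3* to -0.30 for *PMT4*. Of all genes 47.4% were below 0 at 37 °C, and of genes of like length (2148 to 2859 nt) 82.8%.

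The OST members spread to both sides at 37 °C. *OST1* (YJL002C), which belongs to a subcomplex with Ost5, had footprints of 11.10 in *tif3*Δ and 11.72 in wild type and mRNA of 10.8 in *tif3*Δ and 11.1 in wild type. Its footprints were 1.53-fold lower and its TE 1.27-fold lower in the authors' deposited table. *WBP1* (YEL002C), a subunit that binds Ost2 and Swp1, had footprints of 11.56 in *tif3*Δ and 11.66 in wild type and mRNA of 10.5 in *tif3*Δ and 10.6 in wild type. The authors' deposited table listed a log2 TE difference of 0.003 for it. *OST2* (YOR103C), the shortest member, had footprints of 9.31 in *tif3*Δ and 9.28 in wild type but mRNA of 8.4 in *tif3*Δ and 8.9 in wild type. Its TE was 1.38-fold higher in the authors' deposited table, with a footprint interval of -0.12 to 0.19 log2 units that spans 0.

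**Figure D2:**
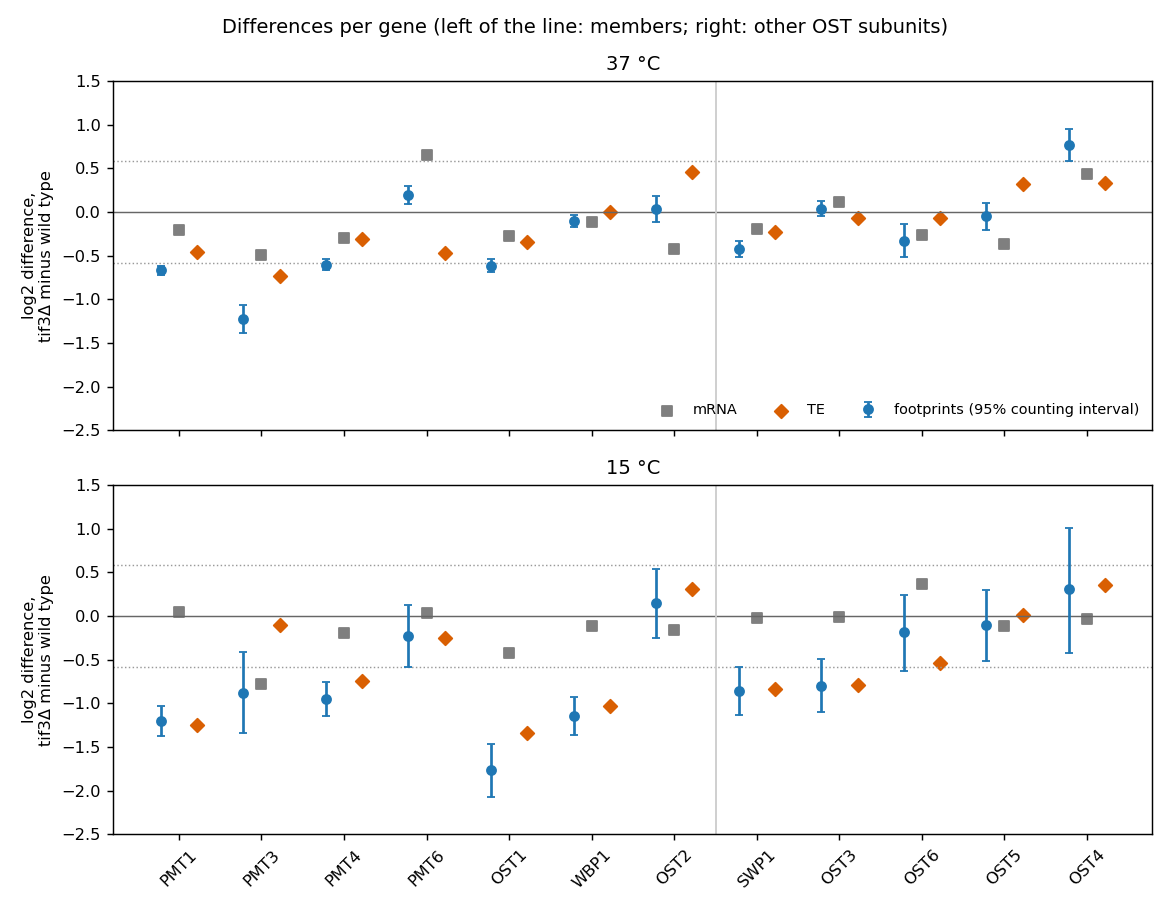
Log2 differences, *tif3*Δ minus wild type, of footprints (blue circles, bars are 95% counting intervals), mRNA (grey squares) and TE (orange diamonds) for the 7 members and the 5 other OST subunits at 37 °C (top) and 15 °C (bottom); dotted lines mark 1.5-fold. At 15 °C the footprint and TE points of *PMT1*, *PMT4*, *OST1* and *WBP1* lie below the lower dotted line while their mRNA points do not.

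The comparison at 15 °C put the same question after a shift to low temperature. *PMT1*, *PMT4*, *OST1* and *WBP1* had TE at least 1.5-fold lower in *tif3*Δ with mRNA less than 1.5-fold apart, that of *OST1* at -0.42 log2 units. TE was at least 1.5-fold lower for these 4 of 7 members, against 18.9% of all genes, and at least 1.5-fold higher for 0 of 7, against 13.9%. Footprints were at least 1.5-fold lower for 5 of 7 (the same 4 genes and *PMT3*), against 20.7% of all genes, and higher for 0 of 7, against 16%. The mRNA was at least 1.5-fold lower for 1 of 7, *PMT3*, against 5.85% of all genes, and higher for 0 of 7, against 6.78%. The median TE difference of the members was -0.75 on the log2 scale, beside -0.003 for all genes, and the median footprint difference -0.95, beside 0.01.

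*PMT1* had footprints of 9.4 in *tif3*Δ and 10.58 in wild type at 15 °C, about 306 footprints in *tif3*Δ and 2127 in wild type, and mRNA of 9.4 in both. The authors' deposited table put its footprints 2.30-fold lower (log2 interval -1.38 to -1.03) and its TE 2.38-fold lower, the 4.83 percentile of all genes. *PMT4* had footprints of 9.1 in *tif3*Δ and 10.01 in wild type, about 246 footprints in *tif3*Δ and 1433 in wild type, and mRNA of 9.4 in *tif3*Δ and 9.6 in wild type. Its TE was 1.68-fold and its footprints 1.93-fold lower in the authors' deposited table. For these 2 genes the footprint intervals, -1.38 to -1.03 and -1.15 to -0.75, lay wholly below the 1.5-fold line.

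The lower mannosyltransferase genes, *PMT3* and *PMT6*, differed less in TE at 15 °C. *PMT3* had footprints of 6.7 in *tif3*Δ and 7.57 in wild type and mRNA of 6.3 in *tif3*Δ and 7.0 in wild type. Its mRNA was 1.71-fold lower and its footprints 1.84-fold lower in the authors' deposited table, while TE was 1.07-fold lower. *PMT6* had footprints of 7.5 in *tif3*Δ and 7.77 in wild type, with mRNA at 7.7 in both. The authors' deposited table put its TE 1.20-fold lower. Their numbers were small, about 48 footprints in *tif3*Δ and 264 in wild type for *PMT3* and about 86 in *tif3*Δ and 303 in wild type for *PMT6*, so the footprint interval of *PMT3*, -1.34 to -0.42 log2 units, reaches to both sides of the 1.5-fold line and that of *PMT6*, -0.58 to 0.13, spans 0.

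*OST1* had the largest footprint and TE differences of the 7 members at 15 °C. Its footprints were 7.8 in *tif3*Δ and 9.51 in wild type, about 99 footprints in *tif3*Δ and 1013 in wild type, and its mRNA was 9.3 in *tif3*Δ and 9.7 in wild type. The authors' deposited table gave 3.38-fold lower footprints (log2 interval -2.07 to -1.46), 2.52-fold lower TE and 1.34-fold lower mRNA, the TE difference at the 3.99 percentile of all genes. *WBP1* had footprints of 8.8 in *tif3*Δ and 9.91 in wild type, about 200 footprints in *tif3*Δ and 1337 in wild type, and mRNA of 9.2 in *tif3*Δ and 9.3 in wild type. Its footprints were 2.21-fold lower and its TE 2.05-fold lower in the authors' deposited table (log2 footprint interval -1.37 to -0.93). *OST2* was the member with higher TE, 1.24-fold in the authors' deposited table, on footprints of 7.4 in *tif3*Δ and 7.22 in wild type. Its footprint interval of -0.25 to 0.54 log2 units spans 0.

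Set side by side, the temperatures ranked the members differently. The authors' deposited table gave *WBP1* a log2 TE difference of 0.003 at 37 °C and -1.03 at 15 °C, and *OST1* one of -0.34 at 37 °C and -1.34 at 15 °C. *PMT1* had -0.46 at 37 °C and -1.25 at 15 °C in the authors' deposited table. *PMT3* had the reverse order there, with -0.73 at 37 °C and -0.10 at 15 °C in the authors' deposited table. Its footprint difference at 37 °C, -1.22, lies within its counting interval at 15 °C, -1.34 to -0.42, on about 48 footprints in *tif3*Δ. The difference at 37 °C minus that at 15 °C was 1.03 for *WBP1*, 0.99 for *OST1*, 0.79 for *PMT1* and 0.45 for *PMT4*, at the 92.7, 92.1, 87.3 and 74.6 percentiles of the 4999 genes compared at both temperatures, with a median of 0.05. It was -0.63 for *PMT3*, -0.21 for *PMT6* and 0.15 for *OST2*. The experiments were normalised separately and hold no replicate values, so none of these differences between temperatures was tested, nor was the part of the mating-type markers in them.

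The 5 OST subunits outside the chosen members give the rest of the complex as far as it was listed. *SWP1*, the partner of *WBP1*, and the oxidoreductase subunit *OST3* resembled *WBP1* and *OST1* at 15 °C. In the authors' deposited table *SWP1* had a log2 TE difference of -0.23 at 37 °C and -0.83 at 15 °C, and *OST3* had -0.07 at 37 °C and -0.79 at 15 °C. *OST6*, which replaces *OST3* in a second form of the complex, had -0.07 at 37 °C and -0.54 at 15 °C in the authors' deposited table. The very short subunits *OST4* and *OST5* had log2 TE differences of 0.33 and 0.32 at 37 °C and 0.35 and 0.01 at 15 °C in the authors' deposited table. Genes of their length had a median of 0.51 at 37 °C, and against it *OST4* stood at -0.19 and *OST5* at -0.20. Against the 37 °C medians for their own lengths *SWP1* stood at -0.49 and *OST3* and *OST6* each at -0.22. At 15 °C *OST4* rested on about 25 footprints in *tif3*Δ and 61 in wild type (log2 footprint interval -0.43 to 1.00). In all, TE was at least 1.5-fold lower for 0 of the 8 listed OST subunits at 37 °C, against 11.1% of all genes, and for 4 of 8 at 15 °C, against 18.9%.

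Footprint levels per kilobase of the 6 subunits shared by all OST complexes and listed (*OST1*, *OST2*, *OST4*, *OST5*, *SWP1* and *WBP1*) spanned 1.79 log2 units in *tif3*Δ and 0.97 in wild type at 37 °C, and 1.85 in *tif3*Δ and 0.97 in wild type at 15 °C. A single gene carried the wider range in *tif3*Δ at each temperature. At 37 °C this was *OST4*, the highest at 3.89 in *tif3*Δ and 3.10 in wild type, without which the range was 0.63 in *tif3*Δ and 0.66 in wild type. *OST4* has 36 codons, so few footprint positions lie behind its level. At 15 °C it was *OST1*, the lowest in *tif3*Δ at 0.42, without which the range was 0.72 in *tif3*Δ and 0.97 in wild type.

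The members differ widely in coding length, a property the study asked about. The 4 mannosyltransferase genes have 753 to 817 codons, *OST1* 476, *WBP1* 430 and *OST2* 130. Coding length and the TE difference had a Spearman correlation of -0.650 across 5195 genes at 37 °C and of -0.070 across 5010 genes at 15 °C; genes are not independent replicates, and short and long genes share the same libraries. At 37 °C the decile of genes that holds the 4 mannosyltransferases, 2148 to 2859 nt long, had a median log2 TE difference of -0.30, and 82.8% of its genes were below 0. Set against that median, *PMT4* stood at -0.01, *PMT1* and *PMT6* each at -0.17 and *PMT3* at -0.44. *OST2* stood at -0.05 against the median of its own decile, which was 0.51, and *WBP1* at -0.01 and *OST1* at -0.35 against the median of theirs, which was 0.01. The decile of the mannosyltransferases at 15 °C had a median of -0.08, with 54.0% of its genes below 0. Against it *PMT1* stood at -1.17, *PMT4* at -0.67, *PMT6* at -0.18 and *PMT3* at -0.03. *OST1* and *WBP1* stood at -1.28 and -0.98 against the median of their decile, which was -0.05. *OST2* stood at 0.24 against its own, which was 0.07, the one member above its decile median at 15 °C.

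**Figure D3:**
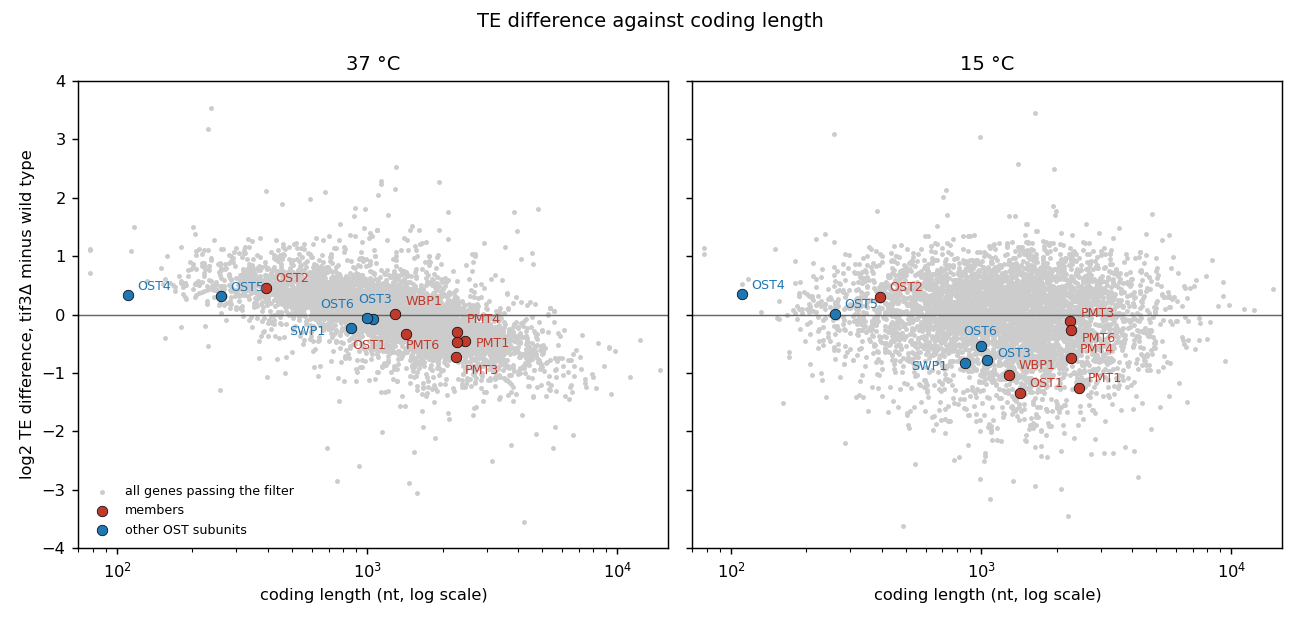
Log2 TE difference, *tif3*Δ minus wild type, against coding length in nucleotides (log axis) at 37 °C (left) and 15 °C (right); grey points are all genes passing the limit, red the 7 members, blue the 5 other OST subunits. At 37 °C the members run from *OST2* at 0.46 to *PMT3* at -0.73. *PMT3* and *OST1* then lie farthest from the median of genes of like length, at -0.44 and -0.35 against it. At 15 °C *OST1*, *PMT1* and *WBP1* lie in the lower part of the grey cloud at -1.34, -1.25 and -1.03 (3.99, 4.83 and 7.58 percentiles).

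Predicted folding around the start codon was computed from the R64 genome, as the free energy of 50 bases before and 50 bases from the start codon; mapped mRNA starts were not used. For 5 of 7 members the fold was more stable than that of most genes. *OST1* had -18.4 kcal/mol (14.2 percentile, low meaning more stable), *PMT3* -17.1 (21.6 percentile), *PMT1* -17.0 (22.2 percentile), and *PMT4* and *WBP1* -16.3 each (26.7 percentile). *PMT6*, at -12.5, was near the middle (57.3 percentile), and *OST2*, at -5.0, was among the least folded genes (97.3 percentile). The 3 members with the lowest TE differences at 15 °C, *OST1*, *PMT1* and *WBP1*, were among those with stable folds, but so was *PMT3*, whose TE differed little there, and *OST2*, with the weakest, had the highest TE difference of the 7 members at both temperatures. Across all genes this energy was weakly related to the difference in TE, with Spearman correlations of 0.175 at 37 °C and 0.218 at 15 °C.

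Other genes of the glycosylation pathway were compared as lists. For all genes the shares at least 1.5-fold apart in TE were 11.1% lower and 10.3% higher at 37 °C, and 18.9% lower and 13.9% higher at 15 °C. The TE difference fell with coding length at 37 °C (Spearman correlation -0.650), and the listed genes were not set against genes of like length. Enzymes that make the lipid-linked oligosaccharide and the sugar donors had a median log2 TE difference of -0.16 at 37 °C (3 of 28 at least 1.5-fold lower and 2 higher) and -0.22 at 15 °C (12 of 27 lower and 1 higher). The glucosyltransferases *ALG8* and *ALG6*, which add glucose to the oligosaccharide before OST uses it, were lowest at 15 °C. The authors' deposited table listed TE differences of 4.77-fold and 4.84-fold downward for them, on about 23 and 25 footprints in *tif3*Δ and 348 and 330 in wild type. *ALG8* was also lowest at 37 °C, 2.54-fold lower in the authors' deposited table, followed by the mannosyltransferase *ALG3* at 1.64-fold lower. The highest at 37 °C were *GNA1*, of N-acetylglucosamine synthesis, at 1.57-fold and *ALG14* at 1.54-fold in the authors' deposited table. *ALG2* was highest at 15 °C, at 2.06-fold, with *CAX4*, a dolichyl pyrophosphate phosphatase, next at 1.45-fold in the authors' deposited table.

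Golgi mannosylation extends the sugars made by the Pmt proteins and OST. Its listed genes had a median log2 TE difference of -0.41 at 37 °C (5 of 22 at least 1.5-fold lower, 2 higher). Their median at 15 °C was -0.67 (13 of 22 lower, 2 higher). *MNT2* and *KTR5* were lowest at 37 °C in the authors' deposited table, by 2.24-fold and 2.08-fold, and *KTR2* and *MNT4* highest, by 1.64-fold and 1.6-fold. In cells at 15 °C *VAN1*, a subunit of a mannan polymerase, and *KRE2* were lowest in the authors' deposited table, by 2.90-fold and 2.62-fold, and *YUR1* and *MNN4* highest, by 1.87-fold and 1.6-fold. Mannosylation of GPI anchors uses the same dolichol phosphate mannose as the Pmt proteins. Its listed genes had medians of -0.10 at 37 °C (1 of 5 at least 1.5-fold lower, 0 higher) and -0.65 at 15 °C (3 of 5 lower, 0 higher). All 5 were below 0 at each temperature, as were 47.4% of all genes at 37 °C and 50.3% at 15 °C. *GPI10* (1.71-fold lower) and *PBN1* (1.19-fold lower) were lowest at 37 °C in the authors' deposited table, with *GPI14* and *GPI18* at -0.04 and -0.02 on the log2 scale. In cells at 15 °C *SMP3* (3.88-fold lower, about 8 footprints in *tif3*Δ and 101 in wild type) and *GPI10* (1.97-fold lower) were lowest in the authors' deposited table, with *PBN1* and *GPI14* at -0.54 and -0.52.

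**Figure D4:**
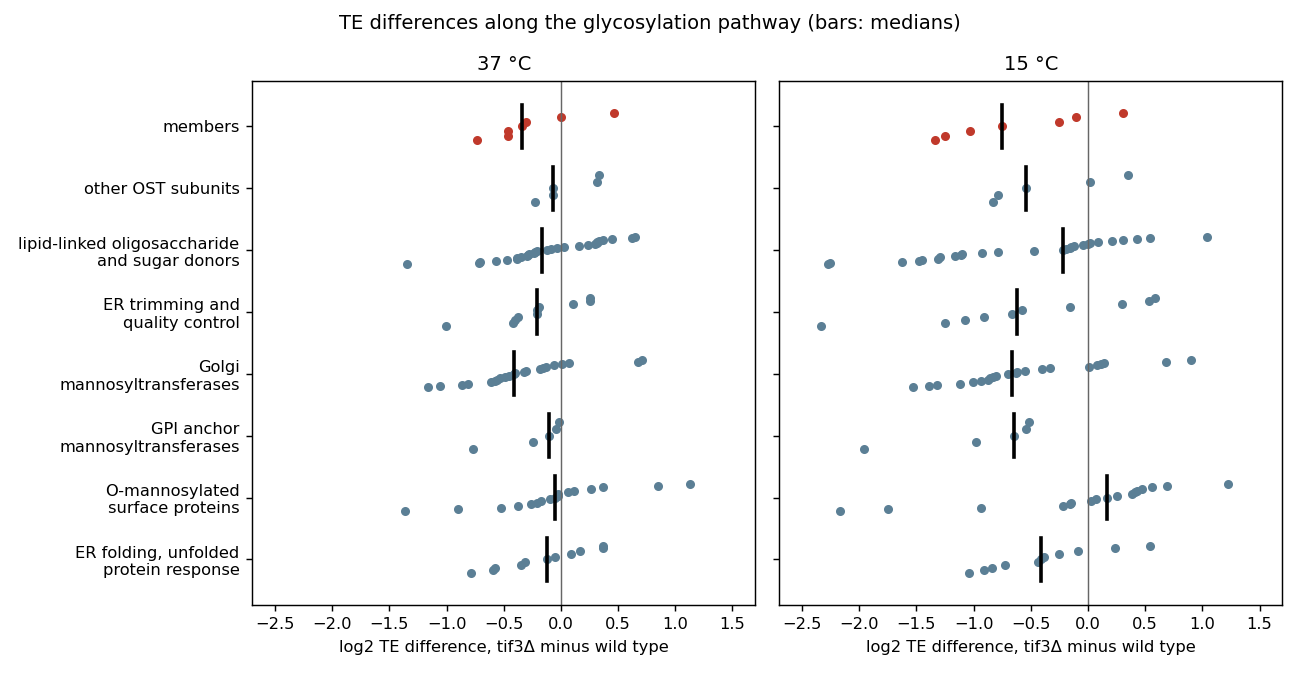
Log2 TE differences, *tif3*Δ minus wild type, of the members and of related gene lists at 37 °C (left) and 15 °C (right); each point is 1 gene and each bar the median of its list. At 15 °C the medians of the members and of the Golgi and GPI mannosyltransferase lists lie at -0.75, -0.67 and -0.65, and that of the O-mannosylated surface proteins at 0.16.

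ER enzymes that trim glycans and check glycoproteins had medians of -0.21 at 37 °C (1 of 10 at least 1.5-fold lower, 0 higher) and -0.62 at 15 °C (5 of 10 lower, 0 higher). *KRE5*, a large relative of glycoprotein glucosyltransferases, was lowest at both, 2.01-fold lower at 37 °C and 5.05-fold lower at 15 °C in the authors' deposited table. The 15 °C value rested on about 16 footprints in *tif3*Δ and 316 in wild type. Next lowest in the authors' deposited table were the glucosidase gene *ROT2* at 37 °C (1.34-fold lower) and the mannosidase gene *MNL1* at 15 °C (2.38-fold lower). The *MNL1* value rested on about 13 footprints in *tif3*Δ and 74 in wild type. The lectin gene *YOS9* and *PNG1* were highest at 37 °C, each 1.19-fold higher in the authors' deposited table, and *MNL2* (YLR057W) and *YOS9* at 15 °C, by 1.5-fold and 1.45-fold.

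ER folding and unfolded protein response genes had medians of -0.13 at 37 °C (2 of 11 at least 1.5-fold lower, 0 higher) and -0.41 at 15 °C (4 of 11 lower, 0 higher). In the authors' deposited table *HAC1*, the transcription factor of this response, and the chaperone gene *JEM1* were lowest at 37 °C (1.73-fold and 1.51-fold lower), and *MPD1* and *SCJ1* highest (each 1.29-fold). In the authors' deposited table *JEM1* and the ER chaperone gene *KAR2* were lowest at 15 °C (2.06-fold and 1.88-fold lower), and *IRE1* and *MPD1* highest (1.45-fold and 1.18-fold). The *JEM1* value at 15 °C rested on about 10 footprints in *tif3*Δ and 101 in wild type.

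O-mannosylated surface proteins, substrates of the Pmt enzymes, had a median log2 TE difference of -0.05 at 37 °C (2 of 17 at least 1.5-fold lower, 2 higher) and 0.16 at 15 °C (3 of 17 lower, 2 higher), and 6 of 17 were below 0 at 15 °C. *MSB2* and *WSC2* were lowest at 37 °C in the authors' deposited table, by 2.57-fold and 1.87-fold, and *AGA2* and *BAR1* highest. *BAR1* was 1.8-fold higher in TE in the authors' deposited table, on about 324 footprints in *tif3*Δ and 59 in wild type. *AGA2* had about 221 footprints in *tif3*Δ and 10 in wild type, with log2 mRNA of 6.8 in *tif3*Δ and 2.9 in wild type. It thus reached the limit for comparison through *tif3*Δ alone, and no TE fold is given. The list median at 37 °C includes *AGA2*. Its rank as highest and its place among the 2 counted as higher there are not read as a TE result. The wall sensors *WSC2* and *MTL1* were lowest at 15 °C in the authors' deposited table, by 4.49-fold and 3.35-fold, on about 6 and 16 footprints in *tif3*Δ and 76 and 135 in wild type. *FUS1* and *WSC3* were highest at 15 °C, by 2.34-fold and 1.61-fold in the authors' deposited table, *WSC3* on about 14 footprints in *tif3*Δ and 29 in wild type. *AGA2* and *BAR1* are a-specific, and mRNA was higher in *tif3*Δ at 37 °C for all 6 a-specific genes checked, by 0.72 to 4.73 log2 units. The 5 of these that met the limit for comparison spanned 0.72 to 4.63. Their highest values rest on little wild-type mRNA, at 1.3 log2 units for *MFA2* and 2.9 for *AGA2*. The mRNA of all 4 α-specific genes was also higher in *tif3*Δ at 37 °C, by 1.81 to 3.81 log2 units. The part of these mating genes in the values of the surface protein list was not tested.

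The genes outside the members whose footprint and mRNA differences at both temperatures lay nearest to the medians of the 4 mannosyltransferase genes were *SPG5*, the protein kinase gene *YPK1*, the histone methyltransferase gene *DOT1*, the glutamate decarboxylase gene *GAD1* and the kinesin gene *KIP3*. Their Euclidean distances, over these 4 differences among 4464 genes averaging at least 32 normalised units in every library type and temperature, were 0.12 to 0.18 log2 units. Among the members *PMT4* lay at 0.13, *PMT1* at 0.32, *WBP1* at 0.59, *OST1* at 0.91, *PMT3* at 0.94, *OST2* at 1.27 and *PMT6* at 1.41. The 5 genes were picked as the nearest, so their lying closer than most members follows from that choice. The 4 mannosyltransferase genes themselves set the medians, so their own distances are not independent of them.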

How the data were processed

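Footprints and mRNA were measured in 16 libraries, grouped by their titles into 8 groups of 2. The build sacCer2 and the tools DESeq, TopHat2 2.0.7, Bowtie2 2.0.6 and CASAVA 1.8 are named in the submitters' processing notes, with no roles. Each deposited table holds log2 normalised values, 1 per gene and group, and the authors' log2 differences of footprints, mRNA and TE. The sources used here do not give how libraries were combined or normalised.

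The deposited differences equalled the differences of group values within 0.10, the rounding. Planned count tests need single libraries, so differences are described without a test. Genes entered comparisons where the 2 genotypes averaged at least 10 normalised units in both library types; *TIF3* was left out of counts. Footprint steps were fitted to values up to 6 steps, of which 100.0% (*tif3*Δ) and 97.5% (wild type) at 37 °C and 83.0% and 82.9% at 15 °C lay within 0.15 steps of a whole number, so numbers at 15 °C are less exact. Intervals are exact conditional binomial (Clopper-Pearson, 95%). PCR reads are not independent molecules. Coding lengths and folding (RNAfold 2.7.2, at 37 °C) came from the RefSeq R64 genome by gene name, a build that differs from sacCer2; no coordinates were used. Planned protein sequence features were not computed.

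Named genes were the members, all other OST subunits, the 2 highest and 2 lowest in TE of each list at each temperature, and the 5 nearest to the mannosyltransferase medians. *MNN6*, an older name of *KTR6*, was counted once. Members and lists were chosen with earlier results of these data known. Python 3.11.15, scipy 1.17.1 and matplotlib 3.10.9 were used, and the step and interval code was tested on simulated data.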

Additional observations from a re-analysis of the deposited data

How the results depend on the processing

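No paired analysis was possible because the tables hold 1 value per group and no single library, so leaving out replicates and other count normalisations were not run either. With a 2-fold in place of a 1.5-fold limit, the members counted as lower at 37 °C came to 0 in TE (against 1) and 1 in footprints (against 4, *PMT3* being left), and those higher in mRNA to 0 (against 1). At 15 °C the same limit left 3 lower in footprints (against 5), 3 in TE (against 4) and 0 in mRNA (against 1). The 12 counts of members were the same with no limit on low values, with a mean of 32 or more, and after re-centring on the median gene, which for counts was chosen after seeing the data. Every member averaged at least 32 units in both library types at both temperatures, so neither limit on low values could change a count. Recomputing the members' differences from the rounded group values moved them by at most 0.07, re-centring by at most 0.04, and a pseudocount of 10 by at most 0.14 on the log2 scale, the last for *PMT3* mRNA at 15 °C (-0.64 against -0.77). No member more than 1.5-fold apart changed direction under these settings, and shifts of at most 0.14 were too small to reverse one. Depth limits *PMT3*, *OST2* and *PMT6* most, at about 48, 76 and 86 footprints in *tif3*Δ at 15 °C, and the lack of replicate values limits every difference.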
